A study of Rattus norvegicus with 19 samples.

Results

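Gfap, Vim and Nes encode the intermediate filament proteins of astrocytes. Their expression was followed in rat somatosensory cortex exposed to a substance that opens the blood-brain barrier, to serum albumin or to TGF-β1. The 3 genes were chosen by name among the 14224 genes that at least 1 probe set of the array names alone, and each of them had 1 probe set. All 19 arrays, from adult male Wistar rats, were used. In set 1, the cortex was perfused with artificial cerebrospinal fluid carrying 1 agent, and 1 array was run per agent and time. The agents were sodium deoxycholate (DOC, 2 mM, at 7, 24 and 48 h), a bile salt used to open the barrier, bovine serum albumin (0.1 mM, at 8, 24 and 48 h), the main protein of serum, and the cytokine TGF-β1 (10 ng/ml, at 8, 24 and 48 h). The only sham operation of set 1 was sampled at 24 h. In set 2, all animals were sampled at 24 h: 4 with albumin plus TGF-β receptor blockers (an antibody to TGF-βR2 at 50 µg/ml and the receptor kinase inhibitor SB431542 at 100 µM), 3 with albumin and 2 with a sham operation. The labels do not give the dose of albumin that went with the blockers, or any perfusion of the sham animals.

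Intermediate filaments are rope-like polymers that give a cell mechanical strength. Gfap is the main filament protein of mature astrocytes and the classic marker of reactive astrocytes, the state these cells enter after injury. Vim copolymerises with Gfap in reactive astrocytes and is also made by endothelial cells, fibroblasts, microglia and immature glia. Nes is the filament of neural progenitor cells, polymerises only together with a partner such as Vim, and returns in some astrocytes near a lesion and in growing vessels.

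Values are log2 signals as deposited, where a difference of 1 is a doubling. Signals are compared within a gene and within a set, because array medians ran from 5.09 to 5.17 in set 1 and from 6.05 to 6.18 in set 2. In set 2, the second albumin replicate was unlike the rest, with a median correlation over genes of 0.977 with the other arrays, while the other 8 had 0.990 to 0.995. Beside the results that use it, values without it are given, as an alternative added in part after the data were seen. Of 12 further markers of astrocyte identity, such as Aldh1l1 and Aqp4, 11 were on the array. All 11 passed the filter in both sets, and their mean log2 signal was 10.6 to 11.3 on the arrays of set 1 and 11.1 to 12.2 on those of set 2. Because whole cortex was taken, fewer cells of a type and less RNA per cell cannot be told apart.

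The genes lie on 3 chromosomes of assembly GRCr8. Gfap spans bases 88352987 to 88361661 of chromosome 10, Vim bases 81577261 to 81585746 of chromosome 17, and Nes bases 175735715 to 175745631 of chromosome 2. The 250 bases upstream of each start site, from RefSeq, are shown because the members moved together over the arrays. Capitals mark matches to 7 motifs searched on both strands. TTCNNNGAA and the same letters spaced by 4 bases are forms bound by STAT factors, which act after cytokines. CAGAC is a core read by SMAD factors, which act after TGF-β. The others are TGANTCA (AP-1), GGGCGG (the GC box read by Sp1), CCAAT and TATAAA. The windows are chr10:88361662-88361911 on the minus strand for Gfap, and chr17:81577011-81577260 for Vim and chr2:175736338-175736587 for Nes on the plus strand. The annotated Nes gene begins upstream of its window.
Gfap: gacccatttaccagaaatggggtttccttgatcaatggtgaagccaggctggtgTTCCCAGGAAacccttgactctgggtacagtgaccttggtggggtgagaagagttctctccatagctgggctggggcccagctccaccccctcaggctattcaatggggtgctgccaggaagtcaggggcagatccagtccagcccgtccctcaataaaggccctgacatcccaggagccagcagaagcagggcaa
Vim: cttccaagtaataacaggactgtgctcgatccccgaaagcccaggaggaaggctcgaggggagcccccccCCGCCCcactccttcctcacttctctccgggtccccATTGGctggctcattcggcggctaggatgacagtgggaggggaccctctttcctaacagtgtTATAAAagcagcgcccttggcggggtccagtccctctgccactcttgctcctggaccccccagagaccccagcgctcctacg
Nes: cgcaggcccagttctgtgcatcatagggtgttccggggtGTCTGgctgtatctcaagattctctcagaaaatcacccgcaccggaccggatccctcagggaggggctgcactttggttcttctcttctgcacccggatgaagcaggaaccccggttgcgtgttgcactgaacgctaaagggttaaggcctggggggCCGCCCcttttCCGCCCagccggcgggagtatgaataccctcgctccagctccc
The 3 windows carried different matches. In the Gfap window, the 1 match was TTCCCAGGAA, starting at position -196 from the start site, an instance of the STAT form with a spacing of 4 that 6.29% of 27457 rat promoter windows of this length hold. The Vim window held TATAAA (13.1% of windows), CCAAT (34.3%) and GGGCGG (32.4%), the last 2 on the opposite strand. The Nes window held GGGCGG at 2 places and CAGAC (42.8% of windows), all on the opposite strand. No match overlapped another, and neither TTCNNNGAA (7.52% of windows) nor TGANTCA (6.36%) was found in the 3 windows. A match describes the letters only.

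The arrays of set 1 ask how each gene moved over the first 48 h of exposure. All 3 members rose between the early time and 48 h, where Nes passed the filter on low signals only through arrays on which it was high. Their timing differed in description. At 24 h, 83.8% to 102% of the Gfap change seen at 48 h was reached, and Vim stepped up on both days. Most of the Nes change came on the second day with DOC and TGF-β1 and on the first day with albumin.

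Gfap had 10.53 at 7 h, 13.49 at 24 h and 13.44 at 48 h with DOC. With albumin it had 12.28, 13.70 and 13.84 at 8, 24 and 48 h, and with TGF-β1 11.83, 13.60 and 13.94. The sham array at 24 h had 12.07. Every Gfap value at 24 and 48 h was above the sham, by 1.37 to 1.87 on the log2 scale (2.59-fold to 3.67-fold). The early arrays were not: Gfap was 1.53 below the sham with DOC at 7 h, 0.23 below it with TGF-β1 and 0.22 above it with albumin at 8 h. No sham was taken at 7, 8 or 48 h.

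Vim had 9.14, 11.0 and 12.30 at 7, 24 and 48 h with DOC. It had 9.96, 11.48 and 12.40 at 8, 24 and 48 h with albumin, and 9.87, 11.02 and 12.60 with TGF-β1, while the sham had 8.80. All 9 treated arrays were therefore above the sham, and under each agent the signal climbed at both steps. At 24 h the fold over sham was 4.57 with DOC, 6.40 with albumin and 4.65 with TGF-β1. At 48 h it was 11.3, 12.1 and 13.9 in the same order of agents. Vim was thus further above the sham than Gfap on all 9 arrays. All of these differences and folds use the same single sham array, whose own deviation enters each of them. In set 2, Vim with albumin at 24 h was 2.76-fold above the mean of 2 shams.

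Nes had 2.98, 3.71 and 7.70 at 7, 24 and 48 h with DOC. It had 3.69, 5.84 and 6.37 at 8, 24 and 48 h with albumin, and 3.59, 4.09 and 6.80 with TGF-β1, against 3.61 on the sham array. Of the 10 arrays, 5 were above 4, the level used to filter low signals: the albumin and TGF-β1 arrays at 24 h and the 3 arrays at 48 h. Nes therefore passed the filter only through arrays where it was high, and its call between times is not independent of that. With signals below 4 set to 4, Nes was at least 3.57-fold above the sham with albumin at 24 h. At 48 h it was at least 13.0-fold above it with DOC, 5.17-fold with albumin and 6.96-fold with TGF-β1, with 1 array behind each value.

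**Figure D1:**
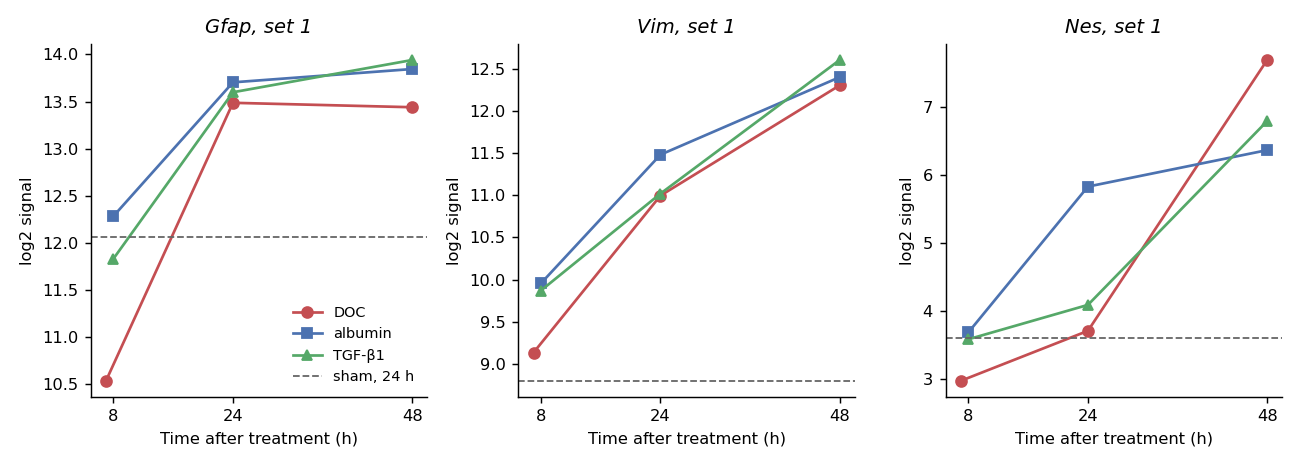
Log2 signal (y axis) of Gfap, Vim and Nes against time after treatment in hours (x axis) for the 3 agents of set 1, with 1 array per point and the sham array at 24 h as a dashed line. Gfap lies between 13.44 and 13.94 on all treated arrays at 24 and 48 h, Vim climbs at both steps, and Nes at 48 h reaches 7.70 with DOC.

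The share of the log2 change between the early time and 48 h that was reached at 24 h puts this timing into 1 number per agent. For Gfap it was 102% with DOC, 91.0% with albumin and 83.8% with TGF-β1. For Vim it was 58.7%, 62.4% and 42.0%, in the same order of agents. For Nes, whose signals below 4 were set to 4, it was 0% with DOC, 77.4% with albumin and 3.33% with TGF-β1. Gfap had the highest share under each agent, and Nes had the lowest with DOC and TGF-β1 but not with albumin.

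**Figure D2:**
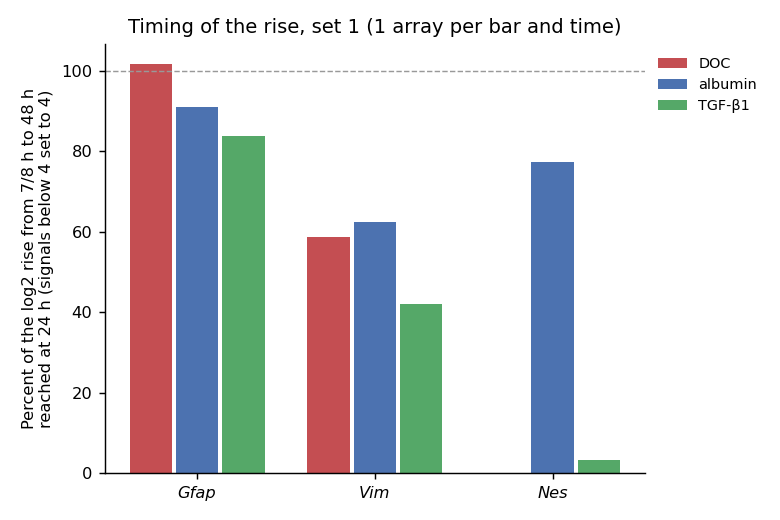
Percent of the log2 change between 7 or 8 h and 48 h that was reached at 24 h, with signals below 4 set to 4 (y axis), for each member (x axis) and agent (colour) of set 1, from 1 array per agent and time. Gfap bars stand at 83.8% to 102%, Vim bars at 42.0% to 62.4%, and the Nes bar for albumin (77.4%) stands above those for DOC (0%) and TGF-β1 (3.33%), which rest on signals near or below 4.

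Over the 3 agents together, limma's additive model of agent and time gave the size of each step, with the 3 agents as the replicates of a time. From 7/8 h to 48 h, Vim rose by a log2 difference of 2.78 ± 0.18 (SE, n = 3 against 3; 6.87-fold; limma adjusted p = 0.00126). Nes rose by 3.54 ± 0.57 (at least 7.76-fold with signals below 4 set to 4; limma adjusted p = 0.0193) and Gfap by 2.19 ± 0.29 (4.57-fold; limma adjusted p = 0.00945). All 3 members were called higher, Nes with the limit on its filter given above, against 3.91% of the 10022 genes tested that were called higher and 5.09% called in either direction. Among those genes the change ranked 48th for Vim and 95th for Gfap from the top. The call for Vim held without each treated array in turn. Gfap missed the threshold without TGF-β1 at 48 h (adjusted p = 0.0556 in limma). Nes missed it without DOC at 7 h (limma adjusted p = 0.105), albumin at 8 h (0.0759), TGF-β1 at 8 h (0.0741) or TGF-β1 at 48 h (0.0872).

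On the first day, from 7/8 h to 24 h, Gfap rose by 2.05 ± 0.29 (SE, n = 3 against 3; limma adjusted p = 0.0387) and Vim by 1.51 ± 0.18 (limma adjusted p = 0.0311). Nes had 1.13 ± 0.57 and did not pass (limma adjusted p = 0.420). So 2 of 3 members were called, against 0.798% of genes tested, and Gfap ranked 25th of 10022 genes from the top. These calls depended on single arrays: leaving out 1 treated array kept the Gfap call only without DOC at 48 h, and the Vim call only without DOC or albumin at 48 h, with adjusted p up to 0.144 for Gfap and 0.145 for Vim in the other fits.

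On the second day, from 24 h to 48 h, Vim rose by 1.27 ± 0.18 (SE, n = 3 against 3; limma adjusted p = 0.0292). Nes had 2.41 ± 0.57 and Gfap 0.15 ± 0.29 (limma adjusted p = 0.116 and 0.831). So 1 of 3 members was called, against 1.41% of genes tested. The Vim call held only without DOC at 7 h or without albumin at 48 h, and the adjusted p was 0.0621 to 0.123 without any other treated array. The second-day step of Vim was larger than that of Gfap under 3 of 3 agents, by 1.12 ± 0.31 on average (SD; range 0.78 to 1.35), and so was that of Nes, by 2.26 ± 1.82. An exact two-sided sign-flip test gave p = 0.25 for both, the smallest that 3 agents allow, and 0.5 after adjustment over 6 such tests. This comparison was chosen after the values were seen.

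Single arrays of set 1 can be ordered by signal, and the standard error of a difference between 2 single arrays in the additive model (0.499 for Gfap, 0.320 for Vim and 0.987 for Nes) serves as the spread. For Gfap, 2 of the 9 gaps between neighbours in that order exceeded it. They set the 6 arrays at 24 and 48 h above the albumin array at 8 h, and DOC at 7 h below all others. For Vim, 5 gaps exceeded it. In the order of signals they fell between the 48 h arrays, albumin at 24 h, the other 24 h arrays, the arrays at 8 h, DOC at 7 h and the sham. The gap to the sham, 0.333 against 0.320, only just exceeded it. For Nes, 1 gap exceeded it: albumin at 24 h lay above TGF-β1 at 24 h. The remaining neighbours did not differ beyond that spread. It was estimated on the 9 treated arrays, and the sham was not in that fit. A gap above 1 standard error describes the order of single arrays and is not a test of a difference.

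Each agent's 3 arrays were also set against the sham of set 1. This is 1 array with no spread of its own, so that the spread of the treated arrays was used for it and its own deviation enters all 3 comparisons. It was taken at 24 h, while an agent's mean covers the early time, 24 h and 48 h, so agent and time are mixed in these differences. On the 24 h arrays alone, the difference from the sham was 1.42 with DOC, 1.64 with albumin and 1.53 with TGF-β1 for Gfap, and 2.19, 2.68 and 2.22 for Vim. Over the 3 times with DOC, the Vim mean was 2.01 ± 0.26 above this single array (SE, n = 3 against 1) and passed the test (limma adjusted p = 0.0458), against 0.42 ± 0.41 for Gfap and 1.18 ± 0.81 for Nes, which did not. With the 2 sham arrays of set 2 added after taking off the difference in set medians, Vim was 0.83 above sham with DOC and did not pass (limma adjusted p = 0.168). The 24 h level of the additive model, an alternative added after the data were seen, put Vim 2.09 above the sham with DOC, Gfap 1.05 and Nes 0.76 (limma adjusted p = 0.0495, 0.278 and 0.696). That is 1 of 3 members called, where 0.469% of genes tested were. With albumin, Vim was 2.48 ± 0.26 above the same array (limma adjusted p = 0.0268), Gfap 1.21 ± 0.41 and Nes 1.69 ± 0.81 (limma adjusted p = 0.305 and 0.481), again 1 of 3, with 0.369% of genes called. With the set 2 shams added, Vim had 1.30 with albumin (limma adjusted p = 0.0787). With TGF-β1, Vim was 2.36 ± 0.26, Gfap 1.06 ± 0.41 and Nes 1.21 ± 0.81 above sham, and 0 of 3 passed in limma (adjusted p = 0.0955 for Vim). Nor did any other gene (0%), although 2 of 3 members and 750 genes had an unadjusted p under 0.05. The Vim call with DOC held without 1 of 9 treated arrays (DOC at 48 h), and otherwise ended at an adjusted p of 0.052 to 0.11. The Vim call with albumin ended without albumin at 8 h (limma adjusted p = 0.0781), albumin at 24 h (0.054), TGF-β1 at 8 h (0.079) or TGF-β1 at 48 h (0.069).

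Between agents, over the 3 times (with 7 h for DOC beside 8 h for the others), no member passed. Albumin exceeded DOC by 0.79 for Gfap (95% interval 0.11 to 1.47; limma adjusted p = 0.646) and by 0.47 for Vim (0.03 to 0.90; limma adjusted p = 0.654). For Nes the difference was 0.50 (-0.84 to 1.85). TGF-β1 minus DOC was 0.64 for Gfap (-0.04 to 1.32), 0.35 for Vim (-0.08 to 0.79) and 0.03 for Nes (-1.32 to 1.38). TGF-β1 minus albumin was -0.15 for Gfap (-0.83 to 0.53), -0.11 for Vim (-0.55 to 0.32) and -0.47 for Nes (-1.82 to 0.88). In limma 0 of 3 members were called in each comparison. The share of genes called was 0.00998% for albumin minus DOC, 0.0299% for TGF-β1 minus DOC and 0% for TGF-β1 minus albumin, where 877 genes had an unadjusted p under 0.05. At an unadjusted p under 0.05 the members numbered 2 for albumin minus DOC, beside 749 of 10022 genes. They numbered 0 for the other 2 comparisons, beside 2086 genes for TGF-β1 minus DOC. The intervals leave room for differences of over 1 on the log2 scale for Nes.

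Set 2 asks what albumin did at 24 h in replicate animals, and what blocking TGF-β receptors did to that response. For each of the 3 genes, every albumin array was above both sham arrays. At an unadjusted p under 0.05, limma's test of albumin against sham held 3 of 3 members and 2208 of 10333 genes. The share of all genes whose arrays separate in this way, or in the ways described below, was not counted. After adjustment, only Vim passed the test of albumin against sham. With blockers the 3 means lay between those of albumin and sham, but no member passed against either group. The share of all genes with means in that order was not counted.

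Gfap had 14.10, 14.42, 14.33 and 13.64 with albumin plus blockers, 14.60, 14.61 and 14.52 with albumin, and 12.70 and 13.91 in the shams. The albumin arrays were tightly grouped, whereas the 2 shams differed by 1.20. All 4 blocker arrays lay below the lowest albumin array, and 3 of 4 lay above the higher sham.

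Vim had 12.12, 12.31, 12.40 and 11.70 with albumin plus blockers, 12.99, 13.16 and 12.77 with albumin, and 11.60 and 11.42 in the shams. Here the 3 groups did not overlap: all 4 blocker arrays lay between the higher sham and the lowest albumin array. The 2 shams differed by 0.18.

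Nes had 5.94, 6.02, 4.92 and 3.80 with albumin plus blockers, 6.94, 6.75 and 5.68 with albumin, and 4.32 and 4.22 in the shams. The blocker arrays spread over 2.22, reached into the range of albumin on 2 arrays and fell below both shams on 1. The 2 shams differed by 0.10.

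**Figure D3:**
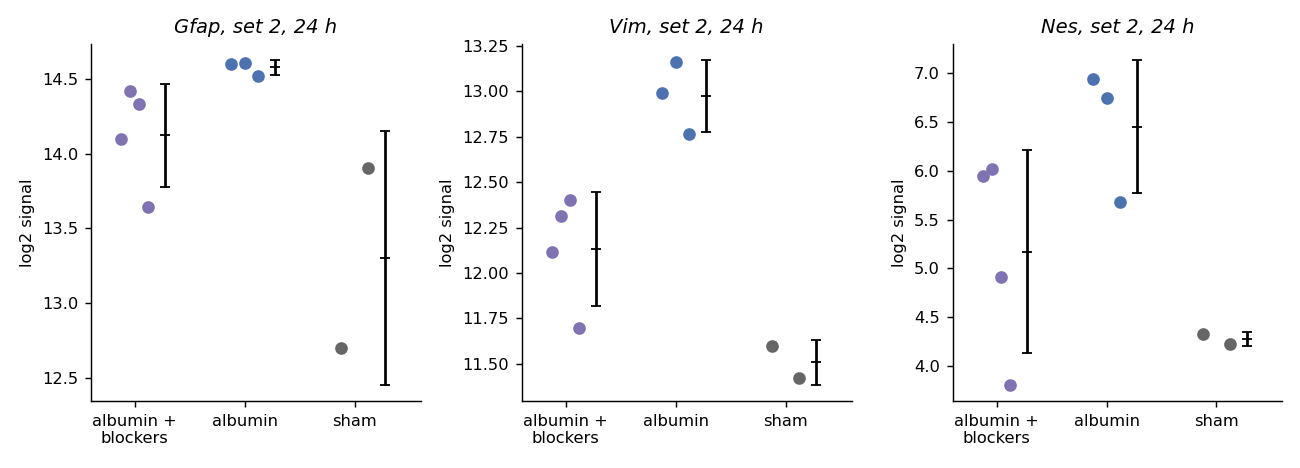
Log2 signal (y axis) of Gfap, Vim and Nes on each array of set 2, in the albumin plus blockers, albumin and sham groups (x axis), with bars for the mean ± SD. The Vim points of the 3 groups do not overlap, while the 2 Gfap shams lie 1.20 apart and the 4 Nes blocker arrays spread over 2.22.

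Albumin minus sham was 1.47 ± 0.22 for Vim (SE, n = 3 against 2; 2.76-fold), and Vim rose (limma adjusted p = 0.0366). It was 1.27 ± 0.34 for Gfap (2.42-fold; limma adjusted p = 0.0971) and 2.18 ± 0.66 for Nes (4.53-fold; limma adjusted p = 0.122), which did not pass. Thus 1 of 3 members was called, against 1.33% of the 10333 genes tested, of which 0.958% were higher. Without albumin replicate 2 the Vim difference was 1.37 (limma adjusted p = 0.0484), Gfap had 1.26 and Nes 2.03. The Vim call ended without albumin replicate 1 (limma adjusted p = 0.0561), blocker replicate 1 (0.0808) or 2 (0.0705), or sham replicate 1 (0.308) or 2 (0.116), while its difference stayed between 1.37 and 1.57. It also ended without the filter on low signals (limma adjusted p = 0.0599) and when only the albumin and sham arrays were fitted (0.0865). The Gfap difference was 0.67 without sham replicate 1 and 1.88 without sham replicate 2, and passed in neither.

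With blockers, the difference from albumin was -0.84 ± 0.18 for Vim (SE, n = 4 against 3), -0.46 ± 0.29 for Gfap and -1.28 ± 0.55 for Nes, with limma adjusted p of 0.118, 0.423 and 0.297. In limma 0 of 3 passed, where 0.0194% of the genes tested did. At an unadjusted limma p under 0.05, 2 of the 3 (Vim and Nes) would count, beside 1715 of the 10333 genes tested. Without albumin replicate 2 the values were -0.74, -0.44 and -1.14. Against sham, albumin plus blockers had 0.63 ± 0.20 for Vim (SE, n = 4 against 2), 0.82 ± 0.33 for Gfap and 0.90 ± 0.62 for Nes. Again 0 of 3 were called in limma, as were 0% of genes, while 2 of 3 members and 444 genes had an unadjusted p under 0.05. The comparisons within a set share arrays, so their values are given side by side and not as separate lines of evidence.

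Whether the members responded unequally was tested on the difference between 2 genes per array. With blockers against albumin, Vim changed by 0.38 more than Gfap in the downward direction, with no overlap between the 4 and 3 arrays (exact two-sided permutation p = 0.0571, the smallest this design allows; 0.343 after adjustment over 6 tests). The other 5 tests, which include all 3 of albumin against sham, gave exact permutation p of 0.2 to 0.8. Without albumin replicate 2, Vim minus Gfap was -0.31 for blockers against albumin and 0.11 for albumin against sham, and the other 4 differences kept their sign. For albumin against sham, the smallest p the design allows is 0.2, and Vim minus Gfap (0.19 on all arrays) turned to -0.50 without sham replicate 2.

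**Figure D4:**
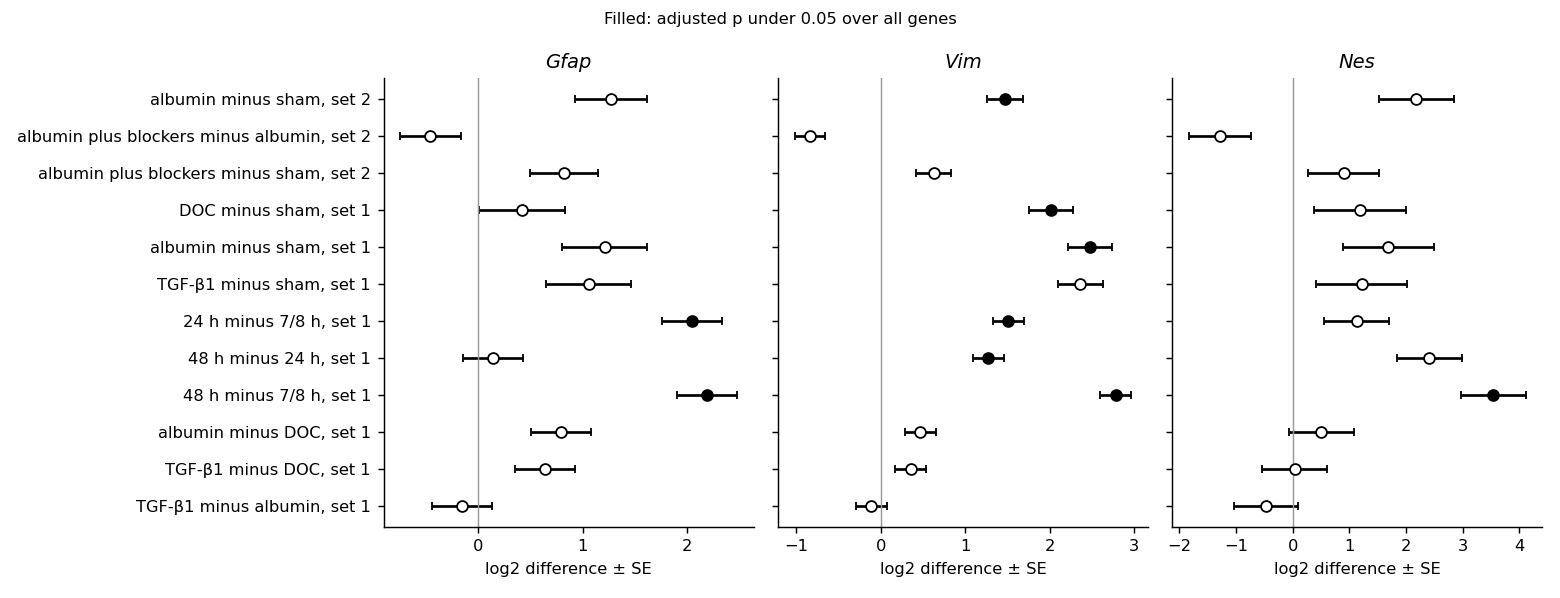
Log2 difference ± SE (x axes) of Gfap, Vim and Nes in the 12 comparisons (rows), with filled points for a limma adjusted p under 0.05 over all genes tested. Vim is filled in 6 rows, Gfap in 2 and Nes in 1, and all 3 are filled for 48 h minus 7/8 h.

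Over the 19 arrays, after the mean of each set was taken off, the members moved together. Pearson's r was 0.853 for Gfap and Vim (Spearman's rho 0.907), 0.873 for Vim and Nes (rho 0.897) and 0.716 for Gfap and Nes (rho 0.768). Permutation within sets (100000 resamples, 3 pairs) gave adjusted p of 4.5e-05, 4.5e-05 and 0.00165 for r, and 1.5e-05, 1.5e-05 and 0.00059 for rho, in the order of pairs just given. The smallest unadjusted p these resamples can give is 1e-05. Within set 1 r was 0.869, 0.887 and 0.713 and within set 2 it was 0.793, 0.879 and 0.738, in the same order of pairs. Without the 2 arrays farthest from the median, r was 0.893, 0.889 and 0.703, and without albumin replicate 2 of set 2 it was 0.850, 0.867 and 0.709. The arrays share agents and times, so these values describe a common course and do not separate agent from time.

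The genes most like each member, by r over the same 19 arrays and among 9844 other genes, differed between the members. For Gfap they were Hspb1, a small heat shock protein that binds filaments (r = 0.950, rho = 0.897), the lysosomal protease Ctsz (r = 0.925), the actin-binding calponin Cnn3 (r = 0.924), Mdfic (r = 0.923) and the calcium-binding S100a4 (r = 0.915). For Vim they were the small GTPase Rhoc (r = 0.950, rho = 0.968), the S100 family members S100a10 (r = 0.940), S100a11 (r = 0.937) and S100a4, and the secreted semaphorin Sema3c (r = 0.930 for both). For Nes they were Mki67, a nuclear protein of dividing cells (r = 0.918, rho = 0.847), and 4 genes of protein synthesis: the ribosomal proteins Rps3 (r = 0.917), Rpl7a (r = 0.908) and Rpl18 (r = 0.905), and the elongation factor subunit Eef1d (r = 0.917). Without albumin replicate 2 of set 2, the r of these genes was 0.914 to 0.958 for Gfap, 0.928 to 0.949 for Vim and 0.904 to 0.936 for Nes. Hspb1, Rhoc and Mki67 remained first, while Rpl18 moved to 9th for Nes. Among all genes, Vim ranked 18th in likeness to Nes and 36th in likeness to Gfap, while Nes ranked 284th in likeness to Gfap (29th, 58th and 355th without that array).

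Of 15 other intermediate filament genes, 10 passed the filter in set 2. For albumin against sham 0 of 10 were called in limma, beside 1.33% of all genes tested. An unadjusted p under 0.05 was held by 3 of the 10, beside 2208 of all 10333 genes. The median difference of the 10 was 0.20, beside 0.02 over all genes. The smallest p there were those of the nuclear lamin Lmna (1.22 ± 0.37, SE, n = 3 against 2; limma adjusted p = 0.122), Synm, a large partner filament of muscle and astrocytes (-1.02 ± 0.31; 0.125), and the neuronal filament Ina (0.29 ± 0.12; 0.230). With albumin replicate 2 left out, 0 of 10 were called in limma, and these genes had 0.86, -0.66 and 0.19. For 48 h against 7/8 h, 7 passed the filter and 1 of them was called, beside 5.09% of all genes, with a median of -0.19 beside 0.01 over all genes. The nuclear lamin Lmnb1 rose by 1.44 ± 0.16 (limma adjusted p = 0.00574), and none fell. The neurofilament genes Nefm and Nefl had -0.41 ± 0.13 and -0.30 ± 0.13 (limma adjusted p = 0.139 and 0.268). Krt8, Krt18, Krt19, Bfsp1 and Bfsp2 did not pass the filter in either set.

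Of 16 genes for linkers, chaperones and modifying enzymes of filaments, 13 passed the filter in set 2. For albumin against sham 0 were called in limma, beside 1.33% of all genes tested. An unadjusted p under 0.05 was held by 4 of the 13, beside 2208 of all 10333 genes. The median of the list was 0.00. Hspb1 had 4.47 ± 0.98 (SE; limma adjusted p = 0.0654). Padi2, an enzyme that citrullinates filament proteins, had -0.85 ± 0.23 (0.0991), and the protease subunit Capn2 had 0.52 ± 0.19 (0.173). When albumin replicate 2 was left out, 0 of 13 were called in limma, and these genes had 4.08, -0.91 and 0.31. For 48 h against 7/8 h, 12 were tested, with a median of 0.10, where 3.91% of all genes were called higher and 1.18% lower. Hspb1 rose by 4.12 ± 0.53 (limma adjusted p = 0.00906), while Cryab, the other small heat shock protein on the list, fell by 1.0 ± 0.15 (0.0144). The kinase gene Sgk1 had -0.83 ± 0.34 (limma adjusted p = 0.222), and the rest did not pass.

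The list of signals and factors known to act on the 3 genes held 28 names, of which 23 were tested in set 2. In albumin against sham, 0.958% of all genes tested were called higher and 0.368% lower. On this list 3 rose and none fell (median 0.20). They were Stat3 (2.65 ± 0.44, SE, n = 3 against 2; limma adjusted p = 0.0440), the factor activated by IL-6 family cytokines, Il6st, their shared receptor chain (0.79 ± 0.14; 0.0459), and Socs3, the feedback inhibitor of that pathway (4.01 ± 0.71; 0.0470). Each of these 3 calls ended without albumin replicate 2, where Stat3 had 2.66 (limma adjusted p = 0.0631), Il6st 0.72 (0.0606) and Socs3 3.36 (0.0522). The AP-1 factor gene Fosl1 was then called instead (3.41; limma adjusted p = 0.0161), against 4.71 (0.0672) on all arrays. For 48 h against 7/8 h, 20 were tested and 1 moved each way (median 0.05), beside 3.91% of all genes called higher and 1.18% lower. Id3, a target of BMP and TGF-β signalling, rose by 1.16 ± 0.23 (limma adjusted p = 0.0377), and the cytokine gene Il6 fell by 3.78 ± 0.73 (0.0356). Tgfb1 itself had 0.84 ± 0.32 (limma adjusted p = 0.196).

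Markers of the cell types that can hold these filaments moved in part with the members, and their part in the results was not tested. Over all genes tested for albumin against sham in set 2, 1.33% were called, 0.958% higher and 0.368% lower. An unadjusted limma p under 0.05 was held by 2208 of these 10333 genes. In set 2 with albumin against sham, no astrocyte identity marker passed: 0 of 11 were called in limma (7 had an unadjusted p under 0.05), and 1 of 11 was above 0 (median -0.53). Their mean level relative to the shams was -0.19 to 0.02 on the 4 blocker arrays and -1.07 to -0.39 on the 3 albumin arrays, with the lowest value on albumin replicate 2. The connexin gene Gjb6 had -2.44 ± 0.60 (limma adjusted p = 0.0779), and was called without albumin replicate 2 (-1.74; limma adjusted p = 0.0408). Of 7 pericyte and smooth muscle genes 1 rose, the actin-binding Tagln (3.50 ± 0.59; limma adjusted p = 0.0446). Of 11 meningeal and fibroblast genes 3 fell, namely Ogn, Slc13a4 and Ptgds (-5.39, -3.89 and -2.46), and the list stood at -1.51 to -0.37 with blockers and -3.09 to -1.95 with albumin relative to sham. Without albumin replicate 2 the 4 calls of Tagln, Ogn, Slc13a4 and Ptgds ended (3.26, -4.91, -3.74 and -2.29; limma adjusted p = 0.0652, 0.0676, 0.0679 and 0.0606), and the pericyte gene Kcnj8 was called (1.13; limma adjusted p = 0.0321). None of 10 endothelial, 9 microglial, 6 progenitor, 5 oligodendrocyte precursor, 3 ependymal and 8 neuronal genes was called in limma (7, 4, 1, 1, 0 and 0 had an unadjusted p under 0.05).

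In set 1, several of these lists were higher on the 48 h arrays. Of all genes tested for 48 h against 7/8 h, 3.91% were called higher and 1.18% lower. An unadjusted limma p under 0.05 was held by 2075 of these 10022 genes. Among the markers, 8 of 10 microglial and macrophage genes rose (median 1.67), led by Cd68 (3.57 ± 0.23, SE, n = 3 against 3; limma adjusted p = 0.000968). Of 7 progenitor and dividing cell genes 4 rose (median 1.73): Cdk1 by 4.09 ± 0.46, Mki67 by 3.67 ± 0.40, Top2a by 3.23 ± 0.30 and Ccnb1 by 1.73 ± 0.30, all of them genes of the cell cycle. The progenitor genes of that list did not: Sox2 had 0.41 ± 0.16, Pax6 -0.47 ± 0.23 and Dcx -0.03 ± 0.39. Cd68 and Cdk1 did not pass the filter on low signals in set 2. Whether called marker genes passed it in set 1 only through the 48 h arrays was not examined. The counts here may therefore carry the limit given for Nes. Endothelial genes rose in 4 of 10 (Tie1, Tek, Abcb1a and Cldn5), pericyte genes in 2 of 5 (Rgs5 and Abcc9), and meningeal and fibroblast genes in 4 of 9, all of them matrix genes (Col1a1, Col1a2, Col3a1 and Lum). Of 11 astrocyte identity genes none rose and 1 fell, Gjb6 (-1.72 ± 0.27; limma adjusted p = 0.0171), with a median of -0.21. None of 8 neuronal, 3 oligodendrocyte precursor and 1 ependymal genes was called in limma (2, 0 and 0 had an unadjusted p under 0.05).

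Relative to the set 1 sham, the mean of the progenitor and dividing cell list was 0.04 to 0.17 at 7/8 h, -0.38 to 0.39 at 24 h and 1.68 to 2.29 at 48 h, with the highest value under DOC, where Nes was also highest. The microglial list was -0.48 to -0.07, -0.20 to 0.28 and 1.38 to 1.90 at the same times. The meningeal and fibroblast list was 0.29 to 1.5, -0.32 to 1.0 and 0.97 to 2.47. The astrocyte identity list was -0.04 to 0.20, -0.44 to -0.18 and -0.53 to 0.03. The pericyte and smooth muscle list was -0.29 to 0.44, 0.15 to 1.20 and 1.02 to 1.25, and the endothelial list -0.96 to -0.20, -0.41 to -0.25 and -0.02 to 0.16.

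**Figure D5:**
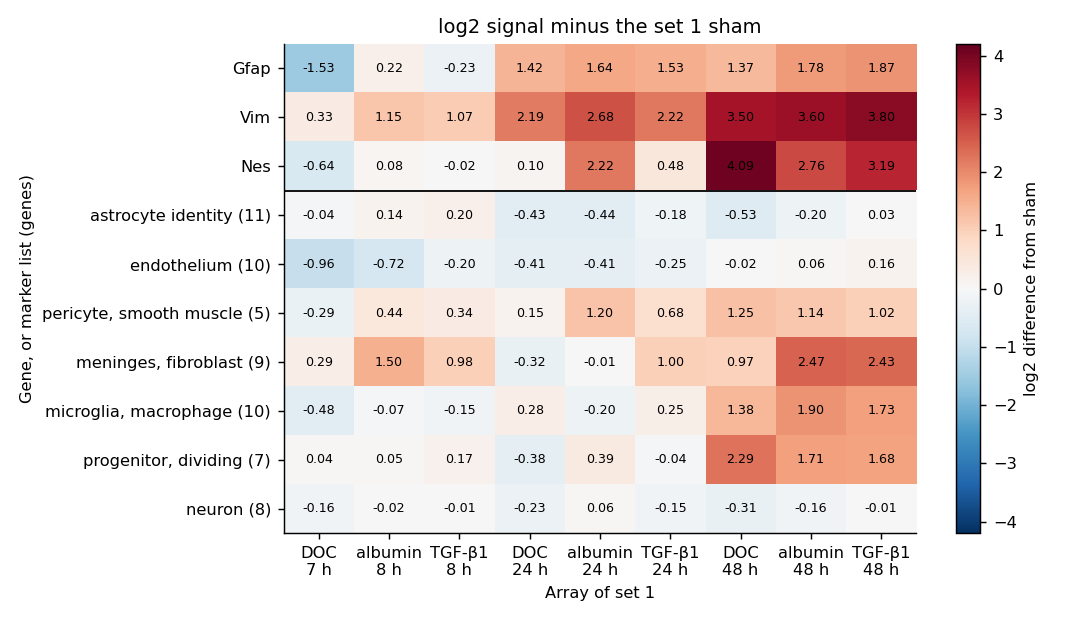
Log2 signal minus the set 1 sham (colour and printed value) for the 3 members and, below the line, the mean of each marker list with its number of genes (rows), on the 9 treated arrays of set 1 (columns). The Gfap and Vim rows exceed 1 on all arrays at 24 and 48 h, the progenitor and microglial rows on the arrays at 48 h, and the pericyte and meningeal rows reach 1 or more on at least 1 array at 24 h.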

How the data were processed

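Per the labels' protocols, cortical RNA was isolated with Trizol and converted to biotinylated cRNA for Affymetrix arrays. The authors deposited 1 log2 signal per probe set and array, computed with GCRMA according to the submitters' processing notes (version not given in the sources used here). This method corrects background, normalises by quantiles and summarises probes, so that shifts common to all genes are removed.

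Of 31099 probe sets, 57 were controls, 20837 named 1 gene, 425 several and 9780 none. Symbols were matched to the GRCr8 gene table by Entrez identifier (20758) or accession (3), and 76 were kept. A gene was represented by its probe set with the highest mean over all arrays. It was tested where log2 exceeded 4 on at least 2 arrays of the set (10022 genes in set 1, 10333 in set 2). limma 3.58.1 (R 4.3.3; lmFit, eBayes, two-sided, Benjamini-Hochberg over all genes tested, threshold 0.05) was checked on simulated data. Set 2 was fitted as 3 groups, set 1 as agent plus time. Permutation tests used scipy 1.17.1, and plots Python 3.11.15 with matplotlib 3.10.9. Genes named were the members, the 5 genes most like each, and from each list those called or with the 3 smallest p in albumin against sham (set 2) and 48 h against 7/8 h; for marker lists, called genes and a few chosen after their values were seen. Members and lists were chosen with earlier results of these data known. Alternatives changed the filter, prior, scaling, model and samples.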

Additional observations from a re-analysis of the deposited data

How the results depend on the processing

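Counts of members called were sensitive to the processing, while directions were mostly kept. Without the filter on low values, 0 of 3 members were called in the 5 comparisons of albumin against sham (sets 1 and 2), DOC against sham, 24 h against 7/8 h and 48 h against 24 h, where 14224 genes entered the fit and the adjustment. Fitting only the arrays of albumin and sham in set 2 gave 0. A joint fit of both sets with a set term gave 3 for albumin against sham (Gfap 1.47, adjusted p = 0.00616; Nes 1.86, adjusted p = 0.0451 in limma) and 1 for TGF-β1 against sham, as did a prior with trend and robust fitting (Vim adjusted p = 0.0231). Without a term for time, DOC and albumin against the set 1 sham gave 0, and without a term for agent, 24 h against 7/8 h gave 1. Adding the set 2 shams gave 0 for DOC, and 1 for albumin, Nes (1.87, adjusted p = 0.0494) in place of Vim. Leaving out 1 array gave 0 to 1 for albumin against sham in either set, for DOC against sham and for 48 h against 24 h, 0 to 2 for 24 h against 7/8 h, and 1 to 3 for 48 h against 7/8 h.

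Reversed values were not called, and are given with the range on leaving out 1 array: Gfap for 48 h against 24 h (-0.0099 without albumin at 24 h, up to 0.42), Nes for albumin against DOC (-0.22 without albumin at 24 h, up to 1.19), Nes for TGF-β1 against DOC (up to 0.72; -0.022 with arrays centred on their medians, -0.17 without DOC at 7 h, -0.46 without DOC at 24 h, -0.21 without TGF-β1 at 8 h), TGF-β1 against albumin (Gfap 0.16 without albumin at 8 h, otherwise down to -0.31; Nes 0.25 without albumin at 24 h, down to -1.15; Vim 0.055 without TGF-β1 at 24 h, down to -0.29), and Vim against Gfap for albumin against sham (-0.50 without sham replicate 2, up to 0.88). The cause was not tested. Of the members' limma differences on leaving out an array, 272 kept direction and side of the threshold and 44 lost a call. The 272 include differences that were not called on all arrays and had no call to lose. Out of 9 fits each, the calls for 48 h against 7/8 h were kept in 9 for Vim, 8 for Gfap and 5 for Nes. Those for 24 h against 7/8 h were kept in 2 for Vim and 1 for Gfap, and that of Vim for 48 h against 24 h in 2. The correlations and gene lists without albumin replicate 2, and the 24 h level of the additive model, were added after the data were seen. No count of members called changed with that level.

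Whether the replicate numbers of set 2 pair the arrays was not tested. Deviations of same-numbered albumin and blocker arrays correlated at 0.22, 0.22 and 0.05. Those of differently numbered albumin and blocker arrays correlated at -0.26 to 0.18. Same-numbered pairs with a sham array ran from -0.14 to 0.14. With the number as a replicate block, 1 member was called for albumin against sham, Nes (2.55, adjusted p = 0.0169 in limma) in place of Vim (1.49, adjusted p = 0.0556). No member had a further probe set, so that alternative was not run, and without the set 1 sham no difference from it exists. The number of arrays limits all values, 1 per agent and time in set 1 and 2 shams in set 2. Low Nes signals lie near the level used as filter.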
